A study of Mus musculus with 12 samples.

Results

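The genes described here are 35 genes of cholesterol synthesis, of its control, and of the response to the liver X receptors (LXR), measured in BV-2, a mouse microglial line that grows without limit in culture (microglia are the macrophages of the brain). They were chosen by name as 18 enzymes of the synthesis pathway, 6 genes of its control by sterol regulatory element-binding proteins (SREBP) and of sterol transfer, 7 LXR and efflux genes, 3 fatty acid synthesis genes and 1 oxysterol enzyme. A probe was matched to 34 of them through its RefSeq accession, and no probe was matched to Idi1. Of the 34, 33 were tested among 19315 genes and unnamed transcripts. Scd1 was above background on 2 of the 3 untreated arrays and on no other array, and was not tested. Each gene was represented by its brightest probe. The 4 groups, with 3 arrays each, received LPS at 100 ng/ml (lipopolysaccharide, an endotoxin of Gram-negative bacteria) together with 20 µM curcumin (a polyphenol of turmeric), LPS alone, curcumin alone, or no treatment. The labels give 6 h of treatment and name no vehicle. Neither genotypes nor separate cultures are described, so p-values measure only the spread between these arrays, which may be technical.

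Cells make cholesterol from acetyl-CoA through the mevalonate pathway. When sterols in the endoplasmic reticulum fall, the escort protein Scap carries SREBP to the Golgi, where it is cut and released to switch on the synthesis enzymes, and the Insig proteins hold it back when sterols are plentiful. Excess cholesterol yields oxysterols, which activate LXR, a nuclear receptor that switches on the exporters Abca1 and Abcg1, and macrophages and microglia rely on this export after taking up lipid and debris.

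Each value below is a log2 level, the log2 signal of a probe minus that array's 75th percentile, and a difference between groups is a log2 change with its standard error from one limma fit over all 12 arrays. A gene was called at a Benjamini-Hochberg adjusted p under 0.05 over all genes tested. Treatment marks were present: the cytokine gene Il6 was higher in LPS cells than in untreated cells by 10.4 ± 0.91, and Hmox1, a stress-response enzyme, was higher in curcumin cells than in untreated cells by 3.69 ± 0.29. The microglial markers Csf1r, Ptprc, Itgam, Aif1, Tyrobp, Fcer1g and Spi1 were above background on 12 arrays, Cx3cr1 on 9 and P2ry12 on 4. Astrocyte Gfap, Aqp4 and Aldh1l1, neuronal Snap25, fibroblast Col3a1 and Dcn, and T cell Cd3d were on none. Cd3e was above background on 12 arrays, Rbfox3 on 11 and Mbp on 8. Between 58.0% and 65.9% of spots were above background on an array, and no spot was saturated. One array stood apart: LPS+curcumin replicate 1 correlated with the LPS arrays at 0.982 and with the curcumin arrays at 0.95, so calls between LPS+curcumin and LPS cells are given with and without it. LPS+curcumin replicate 2 had 1766 outlier spots, against at most 232 on any other array, and in a fit with array weights LPS+curcumin replicates 1 and 3 had weights of 0.117 and 0.164, the lowest of the 12. Scan date and replicate number coincided, and arrays with one scan date are called a slide here. This allowed a fit with the replicate number as a block. Every group always lay at the same slide position, so group and position cannot be told apart.

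The promoters of the 5 genes called between LPS+curcumin and LPS cells are printed here because these genes went in both directions and 4 of the 5 hold a CCAAT box. The windows run from 250 bases before to 50 after the annotated start and come from RefSeq (GRCm38.p6). Lower case is sequence, and capitals mark the CCAAT box (CCAAT, or ATTGG on the other strand), the core of a sterol regulatory element (TCACNCCAC) and the E-box (CACGTG), searched on both strands.
Hmgcs1, chr13:119690101-119690400, plus strand: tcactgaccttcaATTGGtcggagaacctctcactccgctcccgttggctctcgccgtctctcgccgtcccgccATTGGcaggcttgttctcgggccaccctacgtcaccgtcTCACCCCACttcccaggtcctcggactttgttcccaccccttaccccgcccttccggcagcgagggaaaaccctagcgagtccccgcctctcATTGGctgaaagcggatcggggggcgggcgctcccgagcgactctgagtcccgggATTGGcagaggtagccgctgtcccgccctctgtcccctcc
Msmo1, chr8:64733529-64733828, minus strand: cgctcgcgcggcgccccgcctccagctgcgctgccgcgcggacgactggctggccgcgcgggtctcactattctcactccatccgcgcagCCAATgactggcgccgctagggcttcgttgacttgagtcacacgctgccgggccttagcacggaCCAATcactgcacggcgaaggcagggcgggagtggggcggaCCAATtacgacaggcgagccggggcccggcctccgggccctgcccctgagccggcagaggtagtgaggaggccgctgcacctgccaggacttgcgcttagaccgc
Tm7sf2, chr19:6067801-6068100, minus strand: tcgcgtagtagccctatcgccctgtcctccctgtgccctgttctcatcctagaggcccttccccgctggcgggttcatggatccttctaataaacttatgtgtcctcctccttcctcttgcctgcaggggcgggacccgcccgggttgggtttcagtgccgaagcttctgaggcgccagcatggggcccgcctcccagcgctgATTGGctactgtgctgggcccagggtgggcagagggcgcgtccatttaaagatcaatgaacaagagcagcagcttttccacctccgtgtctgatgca
Insig1, chr5:28071162-28071461, plus strand: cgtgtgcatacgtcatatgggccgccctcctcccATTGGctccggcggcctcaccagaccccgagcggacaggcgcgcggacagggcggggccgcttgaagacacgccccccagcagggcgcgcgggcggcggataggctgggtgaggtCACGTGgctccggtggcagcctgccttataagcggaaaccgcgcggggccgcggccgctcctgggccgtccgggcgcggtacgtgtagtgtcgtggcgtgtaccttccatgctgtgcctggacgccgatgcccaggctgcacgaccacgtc
Abca1, chr4:53159846-53160145, minus strand: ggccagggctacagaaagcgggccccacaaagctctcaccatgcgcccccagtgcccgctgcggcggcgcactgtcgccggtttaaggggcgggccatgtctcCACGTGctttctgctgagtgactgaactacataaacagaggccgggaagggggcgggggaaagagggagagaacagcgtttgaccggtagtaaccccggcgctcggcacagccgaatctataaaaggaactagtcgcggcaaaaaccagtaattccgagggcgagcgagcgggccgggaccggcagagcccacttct
A window was in the table for 28 of the 35 genes. CCAAT stood in 14 of 15 synthesis genes and in 2 of 6 LXR and efflux genes, against 41.1% of the 27025 genes in the table. GGGCGG, which binds Sp-family factors and is not capitalised above, stood in 14 of 15 synthesis genes and in 3 of 6 LXR and efflux genes, against 38.2% of all genes. The sterol element core was found in Hmgcs1 alone among the 28, with its first base at -137 from the start site, and in 1.44% of all genes. CACGTG was found in 3 of 15 synthesis genes and 1 of 6 LXR and efflux genes, against 8.09% of all genes. The exact letters AGGTCA repeated with 4 bases between, a consensus for LXR binding, were in none of the 28 and in 0.0148% of all genes. Looser forms of this repeat were not searched, so this does not show that the windows lack an LXR site.

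With arrays scaled on the 75th percentile, few of these genes differed with curcumin, and those few did not share a direction. On the spike-in probes 1 member was called higher and 20 lower between curcumin and untreated cells. Between LPS+curcumin and LPS cells 0 were called higher and 11 lower. The all-gene medians on that scale were -0.69 and -0.4, so these counts cannot be read as particular to the members. With array weights 16 and 14 members were called, against 63.3% and 55.9% of all genes. Of the 33 tested, curcumin cells had 3 higher and 1 lower than untreated cells, at a background of 29.2% of all genes called (21.9% higher and 7.27% lower). One of the 3, Ch25h, entered the test only through the curcumin arrays, on which it was detected, so its call is in part fixed by that filter. The other 32 members were detected on all arrays of every group. With LPS present, LPS+curcumin cells had 2 higher and 3 lower than LPS cells, at a background of 18.7% (12.7% higher and 6% lower). The share called was 12.1% of the members in the first comparison and 15.2% in the second, each below its background. On 5 scalings of the arrays, Hmgcs1, and Ch25h with the limit just given, were called on every one between curcumin and untreated cells, and Hmgcs1 and Msmo1 between LPS+curcumin and LPS cells, against 13.5% and 8.74% of all genes. LPS cells had 0 members called against untreated cells with limma, at a background of 5.73%. An unadjusted p under 0.05 was found for 1 member, against 15.6% of all genes. LPS+curcumin cells had 0 called against curcumin cells, at a background of 0.212%, and 1 with an unadjusted p under 0.05, against 5.85% of all genes. The groups did not overlap for 16 members between curcumin and untreated cells, for 6 between LPS+curcumin and LPS cells and for 5 between LPS and untreated cells, against 65.2%, 27.6% and 32.5% of all genes. With the replicate block 8 members were called in each curcumin comparison, against 42.1% of all genes for curcumin and untreated cells and 28.9% for LPS+curcumin and LPS cells. Without LPS+curcumin replicate 1 the counts were 8 and 12, against 49.6% and 54.8%. In RNA from whole cultures, fewer cells that express a gene and less RNA per cell cannot be told apart. The map of all 33 genes by array shows replicate 3 of both curcumin groups above the other replicates for most synthesis enzymes: the median deviation of these enzymes from the untreated mean was -0.61, -0.25 and 0.88 on the LPS+curcumin arrays and 0.17, 0.05 and 0.67 on the curcumin arrays.

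**Figure D1:**
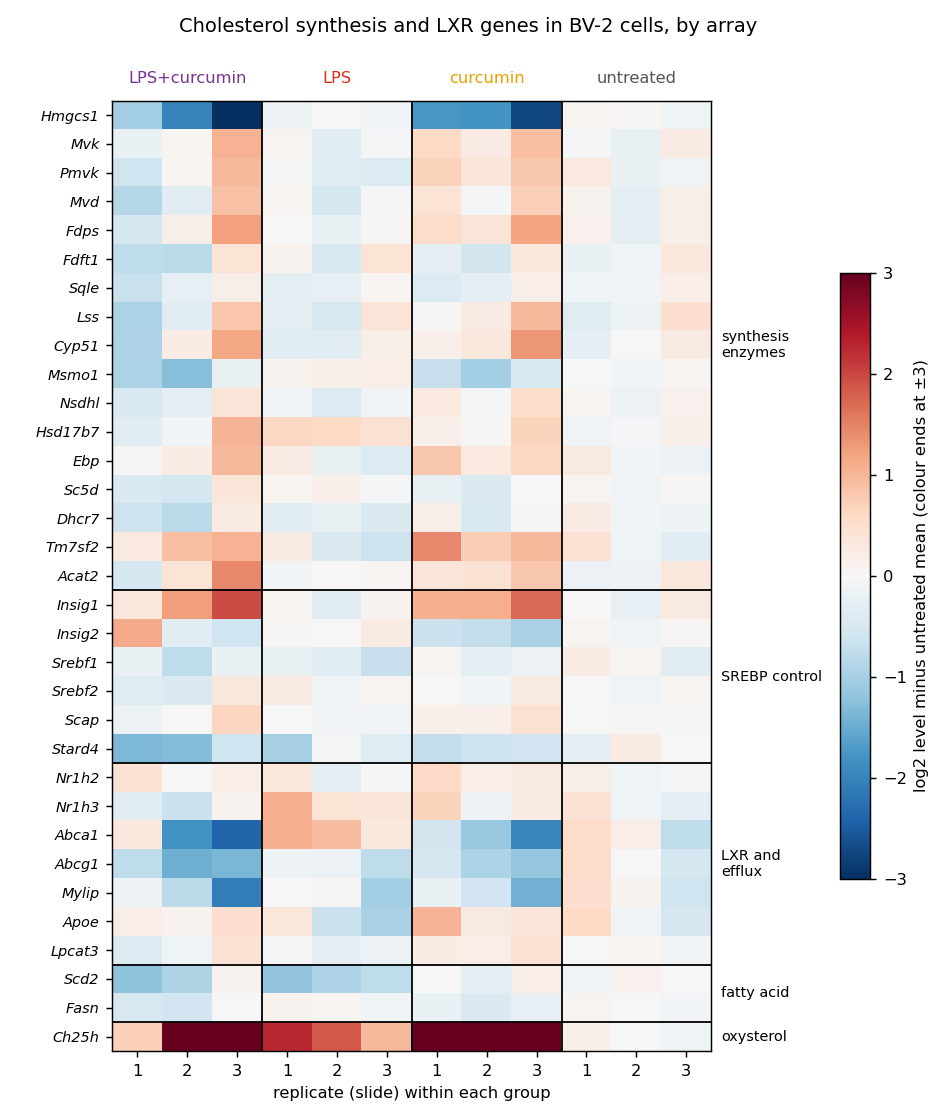
The colour gives the log2 level of 33 genes on each of 12 arrays minus the gene's untreated mean, with groups from left to right and genes grouped by role. Hmgcs1 was low on all curcumin and LPS+curcumin arrays, Ch25h was high on all 3 curcumin arrays, and colours end at 3 log2 units.

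Among the synthesis enzymes, the clearest difference was in Hmgcs1, the cytosolic synthase that makes HMG-CoA for the mevalonate pathway. Its log2 level was 2.29, 2.24 and 1.31 in curcumin cells, against 4.12, 4.07 and 3.91 in untreated cells. With LPS present it was 3.01, 2.03 and 1.03 in LPS+curcumin cells, against 3.89, 4.04 and 3.92 in LPS cells. Neither pair of groups overlapped, and LPS+curcumin replicate 1 was the highest array of its group. Hmgcs1 fell by 2.09 ± 0.42 log2 units (4.25-fold) in curcumin cells relative to untreated cells (limma, adjusted p = 0.006). It fell by 1.93 ± 0.42 (3.81-fold) in LPS+curcumin cells relative to LPS cells (adjusted p = 0.0133), and fell by 2.42 without LPS+curcumin replicate 1 (adjusted p = 0.000198). The second call was lost without replicate 2 of the LPS+curcumin cells (adjusted p = 0.0525) or of the LPS cells (adjusted p = 0.0512). Its level was nearly equal in LPS and untreated cells, with a log2 change of -0.08 ± 0.42. A second Hmgcs1 probe, on average much dimmer, did not show the difference, with log2 changes of 0.06 for curcumin against untreated cells and 0.17 for LPS+curcumin against LPS cells.

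Msmo1, a methylsterol oxidase of the later sterol steps, had log2 levels of 4.07, 3.74 and 4.8 in LPS+curcumin cells, against 5.13, 5.17 and 5.23 in LPS cells. In cells without LPS it was 4.34, 4.01 and 4.57 with curcumin, against 5.02, 4.93 and 5.11 untreated. Every curcumin-treated array lay below every array without curcumin. Msmo1 fell by 0.97 ± 0.26 (1.96-fold) in LPS+curcumin cells relative to LPS cells (adjusted p = 0.028), and fell by 0.91 without LPS+curcumin replicate 1 (adjusted p = 0.0196). The call was lost without LPS+curcumin replicate 2 (adjusted p = 0.115) or without any one of the 3 LPS arrays (adjusted p = 0.07, 0.0818 and 0.0818). Between curcumin and untreated cells its log2 change was -0.71 ± 0.26 (adjusted p = 0.059), which passed with the replicate number as a block (adjusted p = 0.0259, at 42.1% of all genes called).

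Tm7sf2, a sterol reductase of the same late steps, was higher with curcumin. Its log2 level was 1.6, 0.91 and 1.13 in curcumin cells, against 0.61, 0.04 and -0.15 in untreated cells. It was 0.47, 1.07 and 1.21 in LPS+curcumin cells, against 0.42, -0.26 and -0.45 in LPS cells. Both pairs were separate, the second by a margin of 0.05 on slide 1, where LPS+curcumin replicate 1 lay. Tm7sf2 was higher by 1.04 ± 0.31 (2.06-fold) in curcumin cells than in untreated cells (adjusted p = 0.0313) and by 1.01 ± 0.31 (2.02-fold) in LPS+curcumin cells than in LPS cells (adjusted p = 0.0455). Without LPS+curcumin replicate 1 the second change was 1.24 (adjusted p = 0.00773). The first call was lost without curcumin replicate 1 or 3 or untreated replicate 2 or 3 (adjusted p up to 0.11), and the second held only when LPS+curcumin replicate 1 or LPS replicate 1 was the array left out. Both calls depended on the scaling: scaled on the spike-in probes, the log2 change was -0.06 for curcumin against untreated cells and 0.29 for LPS+curcumin against LPS cells.

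The other 14 tested enzymes were not called in either curcumin comparison in the main fit. Without LPS+curcumin replicate 1, Pmvk, Ebp and Acat2 were called higher in LPS+curcumin than in LPS cells. Their changes were 0.79, 0.73 and 0.92 (adjusted p = 0.035, 0.0498 and 0.0204). With array weights Mvk, Pmvk, Fdps, Ebp and Acat2 were called higher in curcumin than in untreated cells. Fdft1, Hsd17b7 and Sc5d were then called lower in LPS+curcumin than in LPS cells. The shares of all genes called in these fits were 54.8%, 63.3% and 55.9%. These 14 enzymes run from Mvk, Pmvk and Mvd, which convert mevalonate to isopentenyl pyrophosphate, and Fdps, which makes farnesyl pyrophosphate, to Fdft1, Sqle and Lss, which build squalene and close it into lanosterol. Among these 14, log2 changes of curcumin against untreated cells in the main fit ran from -0.21 for Sc5d to 0.71 for Fdps (adjusted p = 0.16). For LPS+curcumin against LPS cells they ran from -0.41 for Fdft1 to 0.54 for Ebp (adjusted p = 0.182). Ebp is a sterol isomerase and Sc5d a desaturase. Cyp51, Nsdhl, Hsd17b7 and Dhcr7, which trim and reduce the sterol, and Acat2, which condenses acetyl-CoA at the start, lay within these ranges. Sqle showed how close some groups were: its log2 level was 3.4, 3.51 and 4.01 in curcumin cells, against 3.67, 3.72 and 4.01 in untreated cells. A dim second probe of Fdft1 was higher by 1.31 in curcumin cells than in untreated cells (adjusted p over all probes = 0.0157), where the chosen probe had a log2 change of -0.17. That second probe was also higher by 1.26 in LPS+curcumin than in LPS cells (adjusted p over all probes = 0.0254), where the chosen probe had -0.41.

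**Figure D2:**
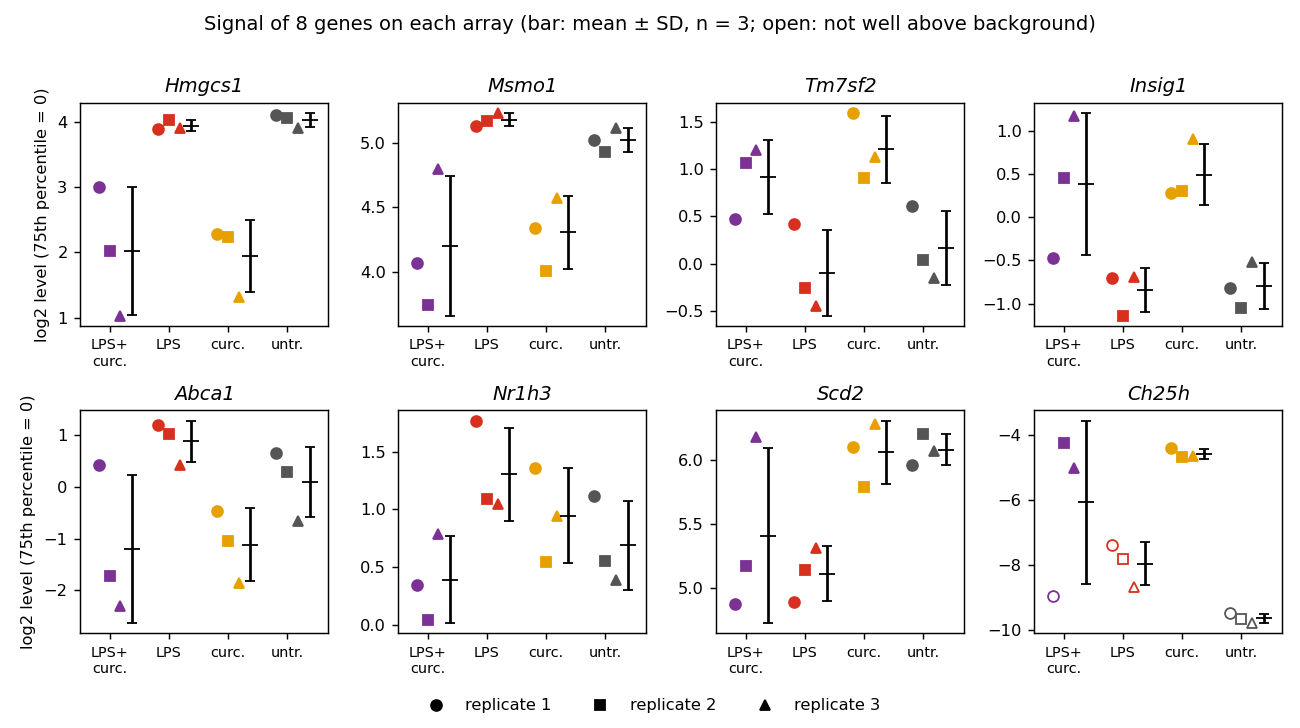
Log2 levels of 8 genes on each array (points, shaped by replicate), with the mean and SD of 3 arrays beside them, from LPS+curcumin cells at the left to untreated cells at the right. Open points are arrays on which the probe was not well above background, which were 7 of 12 for Ch25h.

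In the SREBP control group, Insig1, which retains the Scap-SREBP complex in the endoplasmic reticulum, had log2 levels of 0.28, 0.3 and 0.9 in curcumin cells, against -0.82, -1.05 and -0.52 in untreated cells. It had -0.47, 0.45 and 1.17 in LPS+curcumin cells, against -0.71, -1.14 and -0.69 in LPS cells. Both pairs were separate, and LPS+curcumin replicate 1 again lay closest to the LPS arrays. Insig1 was higher by 1.29 ± 0.36 (2.44-fold) in curcumin cells than in untreated cells (adjusted p = 0.0251), and by 0.45 on the array median (adjusted p = 0.318) and 0.18 on the spike-in probes (adjusted p = 0.491). It was higher by 1.23 ± 0.36 (2.35-fold) in LPS+curcumin cells than in LPS cells (adjusted p = 0.0396), and by 1.66 without LPS+curcumin replicate 1 (adjusted p = 0.000851). For LPS+curcumin against LPS cells the change was 0.5 on the array median (adjusted p = 0.285) and 0.51 on the spike-in probes (adjusted p = 0.129). The first call was lost without curcumin replicate 3 or untreated replicate 1 or 2 (adjusted p up to 0.102), and the second held only when LPS+curcumin replicate 1 or curcumin replicate 3 was the array left out. A second Insig1 probe went the other way, with a log2 change of -0.31 for curcumin against untreated cells (adjusted p over all probes = 0.158) and of -0.65 for LPS+curcumin against LPS cells (adjusted p over all probes = 0.0245). The direction of Insig1 therefore depended on the probe.

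Insig2, its paralogue, had log2 levels of 0.71, 0.65 and 0.39 in curcumin cells, against 1.44, 1.24 and 1.38 in untreated cells. These groups did not overlap, and the log2 change was -0.77 ± 0.37 (adjusted p = 0.121). In LPS+curcumin cells it was 2.49, 1.01 and 0.76, against 1.4, 1.36 and 1.61 in LPS cells, with replicate 1 of the LPS+curcumin cells above every other array. Without that array the log2 change of curcumin against untreated cells had an adjusted p of 0.00364, and that of LPS+curcumin against LPS cells was -0.57 (adjusted p = 0.022). Both Insig2 probes gave -0.77 for curcumin against untreated cells. The precursors themselves, Srebf1 and Srebf2, and Scap were not called, with log2 changes of -0.12, 0.07 and 0.26 in curcumin cells relative to untreated cells. Stard4, a sterol carrier, had -0.64 on its brightest probe (adjusted p = 0.0965) and 0.44 and 0.43 on the other probes.

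Among the LXR and efflux genes, the exporter Abca1 had log2 levels of 0.42, -1.72 and -2.3 in LPS+curcumin cells, against 1.18, 1.02 and 0.42 in LPS cells. In curcumin cells it had -0.46, -1.04 and -1.86, against 0.65, 0.29 and -0.66 in untreated cells. Within each slide the array with curcumin was below its partner in both comparisons, while LPS+curcumin replicate 1 reached the lowest LPS array to 2 decimals. Abca1 fell by 2.08 ± 0.63 (4.22-fold) in LPS+curcumin cells relative to LPS cells (adjusted p = 0.0436), and fell by 2.89 without LPS+curcumin replicate 1 (adjusted p = 0.000501). Leaving out any of the other 11 arrays ended the call (adjusted p up to 0.152). Between curcumin and untreated cells the log2 change was -1.21 ± 0.63 (adjusted p = 0.15). With the replicate block this change passed (adjusted p = 0.0287).

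Abcg1, the exporter that passes cholesterol to lipoprotein particles, had log2 levels of 2.08, 1.37 and 1.47 in LPS+curcumin cells, against 2.69, 2.66 and 2.07 in LPS cells. It had 2.33, 1.89 and 1.68 in curcumin cells, against 3.39, 2.81 and 2.3 in untreated cells. The groups overlapped slightly, although the array with curcumin was the lower one on every slide. The log2 change was -0.83 ± 0.32 between LPS+curcumin and LPS cells (adjusted p = 0.0895) and -0.87 ± 0.32 between curcumin and untreated cells (adjusted p = 0.0606). With the replicate block both passed (adjusted p = 0.015 and 0.00931). Without LPS+curcumin replicate 1 Abcg1 fell by 1.05 in LPS+curcumin cells relative to LPS cells (adjusted p = 0.0186). Mylip, an E3 ligase that degrades lipoprotein receptors, had log2 changes of -0.68 and -0.74 in these comparisons, and the block fit gave adjusted p = 0.0366 and 0.0214. The first Mylip change was -1.1 without LPS+curcumin replicate 1 (adjusted p = 0.0841). Its second probe, much dimmer, was higher by 1.26 and 1.53 (adjusted p over all probes = 0.044 and 0.0162).

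Nr1h3, which encodes LXR alpha, had log2 levels of 0.34, 0.04 and 0.79 in LPS+curcumin cells, against 1.77, 1.09 and 1.05 in LPS cells. It had 1.36, 0.54 and 0.94 in curcumin cells, against 1.12, 0.55 and 0.39 in untreated cells. The pair with LPS was separate and the pair without LPS overlapped. The log2 change was -0.91 ± 0.31 between LPS+curcumin and LPS cells (adjusted p = 0.0615, with the block 0.0245, and 0.0478 without LPS+curcumin replicate 1) and 0.26 ± 0.31 between curcumin and untreated cells (adjusted p = 0.517). The difference between these changes, the interaction of LPS and curcumin, was -1.17 ± 0.44 (adjusted p = 0.536). With limma 0 members were called for the interaction, against 0.73% of all genes. For 2 members its unadjusted p was under 0.05, against 6.64% of all genes. Nr1h2, which encodes LXR beta, Apoe, the lipoprotein that accepts exported cholesterol, and Lpcat3, which remodels phospholipids, had log2 changes of 0.34, 0.54 and 0.28 in curcumin cells relative to untreated cells, none of them called.

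Ch25h, the hydroxylase that makes an oxysterol from cholesterol, was above background on all 3 curcumin arrays, with log2 levels of -4.4, -4.68 and -4.64, and on 0 untreated arrays, with -9.48, -9.65 and -9.77. Curcumin cells were at least 7.08-fold higher than untreated cells, a bound set by the dimmest detected signal on each untreated array (adjusted p = 0.00361). Because Ch25h passed the detection filter only through the curcumin arrays, that p is no independent support. In LPS+curcumin cells it was above background on 2 of 3 arrays, with -8.93, -4.24 and -5.01, and in LPS cells on 0, with -7.38, -7.79 and -8.66. The LPS+curcumin array at -8.93 was replicate 1. It lay below all 3 LPS arrays, so no fold is given, and the difference was not called (adjusted p = 0.156). Without that array the log2 change was 3.32 and was called (adjusted p = 2.47e-05, at 54.8% of all genes called). The LPS arrays were not above background, so this change has no fold either, and the filter's limit applies to this call too.

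Scd2, a desaturase that makes monounsaturated fatty acids, was the member with the smallest p between LPS and untreated cells. Its log2 level was 4.89, 5.14 and 5.31 in LPS cells, against 5.96, 6.2 and 6.07 in untreated cells, and the groups did not overlap. The log2 change was -0.97 ± 0.30 (adjusted p = 0.105). It passed with quantile scaling (adjusted p = 0.00512) and with spike-in scaling (adjusted p = 0.0266). In LPS+curcumin cells Scd2 was 4.88, 5.17 and 6.18, against 6.1, 5.79 and 6.28 in curcumin cells, with a log2 change of -0.65 (adjusted p = 0.863). Fasn, the fatty acid synthase, had log2 changes of 0.03 between LPS and untreated cells and of -0.29 between curcumin and untreated cells, neither called. Nr1h3, Abca1 and Hsd17b7 had log2 changes of 0.62, 0.78 and 0.57 between LPS and untreated cells, with adjusted p = 0.401, 0.739 and 0.47.

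As lists, the synthesis enzymes and the LXR and efflux genes differed little between curcumin and untreated cells. The median log2 change was 0.36 for 17 synthesis enzymes and 0.26 for 7 LXR and efflux genes, against 0.41 for all genes tested. The difference between the list medians was 0.1, and within the 3 slides it was 0.11, 0.21 and 0.18. Between LPS+curcumin and LPS cells the medians were 0.08 and -0.68, against 0.32 for all genes, and their difference was 0.76. Within slides that difference was -0.13, 1 and 0.93, so the slide of LPS+curcumin replicate 1 ran the other way. Between LPS and untreated cells the medians were -0.12 and -0.16, against 0.01 for all genes. The difference of medians was -0.05 when all probes of a gene were averaged in the LPS+curcumin and LPS comparison, so it also depended on the choice of probes.

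**Figure D3:**
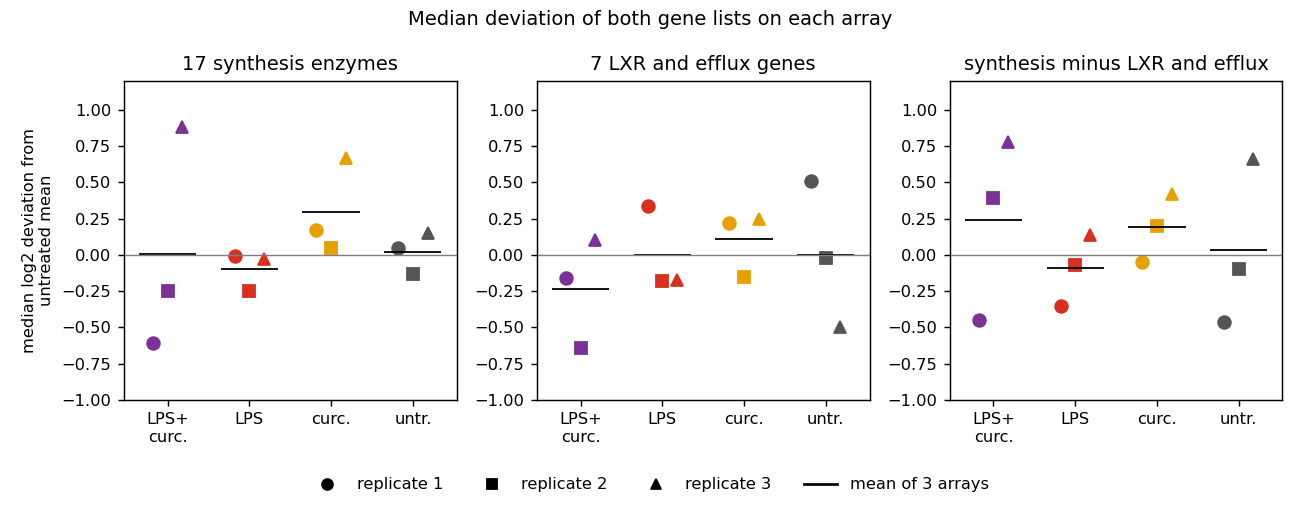
Each point is 1 array: the median over 17 synthesis enzymes (left), over 7 LXR and efflux genes (middle) and their difference (right), as log2 deviation from the untreated mean, with a line at the mean of 3 arrays. The difference of LPS+curcumin cells runs from -0.45 to 0.78, and that of untreated cells from -0.46 to 0.66, which spans most of the same range.

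The sign of a small curcumin change depended on the scaling of the arrays. The median of all genes between curcumin and untreated cells was 0.41 when arrays were scaled on the 75th percentile, 0 with quantile scaling, -0.42 on the array median and -0.69 on the spike-in probes. Between LPS+curcumin and LPS cells the values were 0.32, 0.05, -0.41 and -0.4. Relative to the all-gene median of 0.41, curcumin against untreated cells gave -2.5 for Hmgcs1, -1.12 for Msmo1, -1.63 for Abca1, -1.28 for Abcg1, 0.63 for Tm7sf2 and 0.88 for Insig1. On the spike-in scale 1 member was called higher and 20 lower between curcumin and untreated cells, against 3 higher and 1 lower on the 75th percentile. On that scale 0 were called higher and 11 lower between LPS+curcumin and LPS cells, against 2 higher and 3 lower. On the array median the counts were 1 higher and 8 lower in the first comparison and 0 higher and 10 lower in the second, and with quantile scaling 3 higher and 6 lower, and 1 higher and 3 lower. The share of all genes called on each of these scalings is not given here. The median of all genes was also below 0 on the array median and the spike-in probes, so these counts cannot be read as particular to the members.

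**Figure D4:**
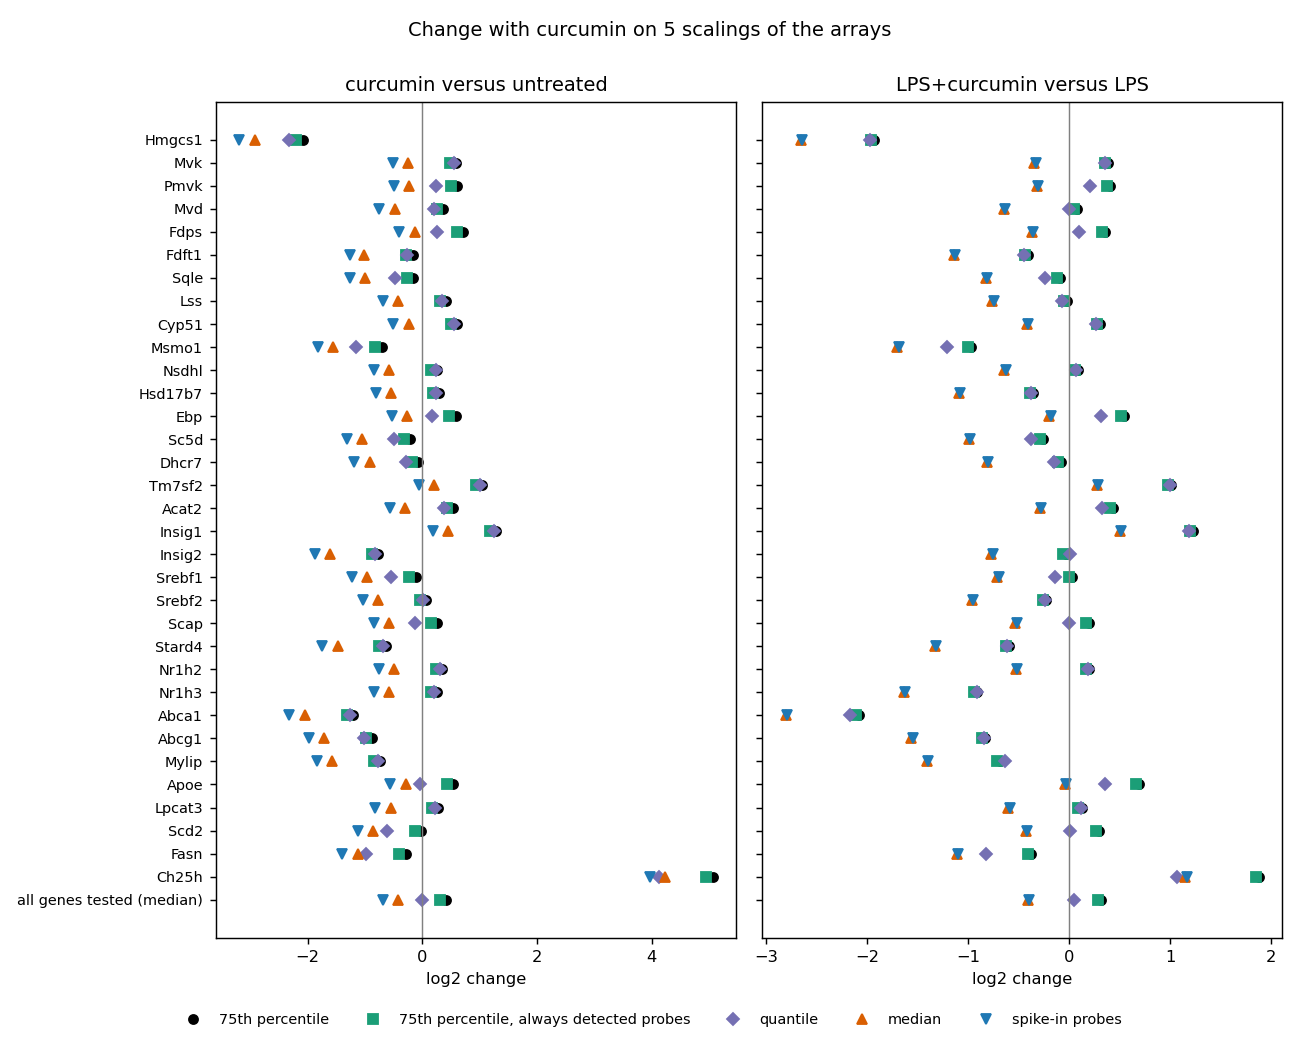
Log2 change of each of 33 genes, and the median of all genes, for curcumin against untreated cells (left) and LPS+curcumin against LPS cells (right) on 5 scalings. In both panels Hmgcs1, Msmo1, Abca1, Abcg1, Mylip, Stard4, Fasn, Fdft1, Sqle, Sc5d and Dhcr7 stay below 0 on all 5. Ch25h and Insig1 stay above 0 on all 5, while Tm7sf2 crosses 0 at -0.06 in the left panel.

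Other genes of sterol and lipid handling gave the surrounding picture. Among 11 tested LXR partners, further LXR targets and oxysterol genes, 1 was higher and 3 were lower in curcumin cells than in untreated cells, which is 36.4% of them against 29.2% of all genes. Smpdl3a, a phosphodiesterase gene known as an LXR target in human macrophages, was above background on 3 curcumin and 0 untreated arrays and at least 22.5-fold higher. It passed the detection filter only through the curcumin arrays, so its adjusted p of 0.000995 is no independent support. The 36.4% includes this call, which that filter fixed in part. Gpr183, the receptor for Ch25h-derived oxysterols, fell by 4.46 (adjusted p = 0.00272), Arl4c, a small GTPase, by 1.72 (adjusted p = 0.0148), and Rxra, the partner of LXR, by 0.94 (adjusted p = 0.0225). Relative to LPS cells 2 were higher and 1 was lower in LPS+curcumin cells, against 18.7% of all genes called. Smpdl3a, one of the 2, was above background on 2 of 3 LPS+curcumin and 0 LPS arrays, and no fold is given. The filter's limit applies to this call too. Hsd3b7, a bile acid enzyme, was higher by 0.96 (adjusted p = 0.00366), and by 0.24 on the spike-in probes, and Gpr183 fell by 2.76 (adjusted p = 0.0306). In LPS cells Rxra fell by 1.02 (adjusted p = 0.0434) and Hsd3b7 by 0.61 (adjusted p = 0.0453) relative to untreated cells. They are 18.2% of the list, against 5.73% of all genes called, and neither was called on all 5 scalings. Without LPS+curcumin replicate 1 the changes of Hsd3b7 and Gpr183 between LPS+curcumin and LPS cells were 0.98 and -3.48, both called. The list then had 5 higher, Smpdl3a with the filter's limit among them, and 1 lower, at 54.8% of all genes called.

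Of 13 fatty acid and triglyceride synthesis genes, 4 were higher and 2 lower in curcumin cells than in untreated cells, which is 46.2% of them against 29.2% of all genes. On all 5 scalings 1 of the 4 and both of the lower genes were called. Acss2, which makes acetyl-CoA from acetate, was higher by 1.06 (adjusted p = 0.00432) but had -0.04 on the spike-in probes, and Acacb, an acetyl-CoA carboxylase, was higher by 2.33 (adjusted p = 0.0106). Mid1ip1, a regulator of that carboxylase, fell by 0.74 (adjusted p = 0.016), and Elovl6, an elongase, fell by 0.91 (adjusted p = 0.0359). Lpin1, a phosphatidate phosphatase, was the 1 gene of this list called between LPS and untreated cells, where it fell by 2.74 (adjusted p = 0.000609). Relative to LPS cells 3 were higher in LPS+curcumin cells, or 23.1% of them against 18.7% of all genes. They were Lpin1 by 1.93 (adjusted p = 0.00582), Acacb by 2.01 (adjusted p = 0.0278) and Acss2 by 0.75 (adjusted p = 0.0282), the last at 0.03 on the spike-in probes. Without LPS+curcumin replicate 1 these changes were 2.26, 2.81 and 0.62, all called, and 9 of the 13 were called higher, at 54.8% of all genes called in either direction.

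Of 6 genes of SREBP processing and turnover, 2 were higher and 1 lower in curcumin cells than in untreated cells, 50% of them against 29.2% of all genes. Mbtps2, the protease that makes the second cut of SREBP, was higher by 1.11 (adjusted p = 0.0156), Fbxw7, an adaptor for SREBP degradation, was higher by 0.8 (adjusted p = 0.0321), and Rnf139, a ubiquitin ligase, fell by 1.2 (adjusted p = 0.0334). On the spike-in probes the changes of Mbtps2 and Fbxw7 were 0 and -0.3, so their direction was lost with that scaling, while Rnf139 was called on all 5. In LPS+curcumin cells Mbtps2 alone of the 6 was called against LPS cells, 16.7% of them against 18.7% of all genes. Mbtps2 was higher by 1.37 (adjusted p = 0.00954), and by 1.61 without LPS+curcumin replicate 1. Of 11 genes of sterol uptake, trafficking and storage, 1 was higher and 1 lower in curcumin cells than in untreated cells, or 18.2%: Npc2, a lysosomal cholesterol carrier, was higher by 0.9 (adjusted p = 0.0226; -0.2 on the spike-in probes), and Gramd1b, a sterol transporter at membrane contacts, which fell by 1.08 (adjusted p = 0.0294). In LPS+curcumin cells relative to LPS cells Npc1, the lysosomal partner of Npc2, was higher by 0.83 (adjusted p = 0.00945; 0.11 on the spike-in probes), while Gramd1b fell by 1.52 (adjusted p = 0.011) and Stard3, a late endosomal sterol binder, fell by 0.7 (adjusted p = 0.0299). These 3 of the 11 are 27.3%, against 18.7% of all genes. Their changes were 0.83, -1.89 and -0.81 without LPS+curcumin replicate 1, all called, at 54.8% of all genes called. Of 4 late sterol and isoprenoid enzymes, 1 was called between curcumin and untreated cells, 25% of them against 29.2% of all genes. It was Cyb5r3, an electron donor reductase, higher by 0.85 in curcumin cells (adjusted p = 0.0119), with -0.26 on the spike-in probes. Between LPS+curcumin and LPS cells limma called 0 of these 4, against 18.7% of all genes. Of the 4, 0 had an unadjusted p under 0.05, against 37.3% of all genes. When LPS+curcumin replicate 1 was left out 1 was called, at 54.8% of all genes called.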

How the data were processed

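RNA of 12 samples of BV-2 cells was labelled with Cy3 for Agilent arrays of one colour, per the labels' protocols. The deposited scanner files hold spot intensities; the processed signal is an intensity after background subtraction by Agilent Feature Extraction (10.5.1.1 in the deposited headers, 9.1 in the submitters' processing notes). The deposited value table holds the same intensity values within 0.397% and was an alternative input. Control spots and outlier flags were left out, spots of one probe averaged, and probes named through RefSeq accessions (25097 of 41174). A probe was tested if a group had it above background throughout, on its 3 arrays. Log2 levels were scaled on the 75th percentile and fitted with limma 3.58.1 (4 group means, empirical Bayes, Benjamini-Hochberg). Arrays of one number share a scan date per the file headers and were taken as one slide. All 12 correlated best with their own number (deviations of same-numbered arrays correlated between -0.0193 and 0.711), so the replicate block is given beside results it changes. Normexp (offset 50) used median spot and background signals. Members, lists and tests were chosen with earlier results of these data known. The number of arrays limits precision. From each list of other genes, up to 4 called genes per comparison were named by smallest adjusted p. The code was tested on simulated data.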

Additional observations from a re-analysis of the deposited data

How the results depend on the processing

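The counts of members called were less stable than the changes of single genes. Over 9 gene and comparison pairs that were called, 242 alternative results gave 151 with the same call, 90 in the same direction without the call and 1 reversed, Tm7sf2 between curcumin and untreated cells with spike-in scaling at -0.06. Between curcumin and untreated cells (4 called), the count was 9 with quantile scaling, 9 on the array median, 21 on spike-in probes, 7 on the always detected probes, 1 with normexp, 12 with only the groups compared and 16 with array weights. Between LPS+curcumin and LPS cells (5 called), it was 10 on the array median, 11 on spike-in probes, 0 with normexp, 1 with no filter on dim probes, 0 with only the groups compared and 14 with array weights. Between LPS and untreated cells (0 called), it was 1 with quantile, spike-in or always detected scaling, 3 with only the groups compared and 3 with array weights. For the interaction (0 called), array weights gave 1. With array weights the shares of all genes called were 63.3%, 55.9%, 20.6% and 6.16% in these 4 comparisons, in the order given. The replicate block gave 8 and 8 members in the first 2 comparisons and changed no count in the others. Chosen after seeing the data, leaving out all 4 arrays of a replicate number gave 0 (replicate 2) and 1 (replicate 3) for curcumin against untreated cells, and 8, 0 and 0 (replicates 1, 2 and 3) for LPS+curcumin against LPS cells. Leaving out single arrays gave counts of 0 to 2 (LPS and untreated), 2 to 10 (curcumin and untreated), 0 to 12 (LPS+curcumin and LPS), 0 to 1 (LPS+curcumin and curcumin) and 0 (interaction).

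The difference between the list medians ran from -0.14 to 0.17, -0.07 to 0.33, -0.15 to 1.27, -0.37 to 0.49 and -0.43 to 0.33 over single-array omissions in the same order. For curcumin against untreated cells it was 0.28 with quantile scaling and 0.17 over the mean of all probes. For LPS+curcumin against LPS cells it was -0.05 over the mean of all probes. For LPS against untreated cells it was 0.1 with array weights and -0.04 without the replicate 2 arrays. Hmgcs1 (-2.26 to -1.77) kept its call between curcumin and untreated cells under every single-array omission, while Abca1 lost its call in 11 of 12, Insig1 and Tm7sf2 in 10 of 12 between LPS+curcumin and LPS cells. The causes were not tested.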
